A study of Rattus norvegicus with 2 samples.

Results

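The genes described here encode blood group proteins and other proteins of the red cell surface: Rhag and Rhd of the Rh complex, Kel and Xk of the Kell complex, the water channel Aqp1, the complement regulator Cd55, the lectin Lgals5 and the glycoprotein Emb. They were found by gene symbol among the named genes of a rat array, and all 8 were measured, out of 15037 named genes. The spleens came from 2 male Sprague-Dawley rats, of which 1 had daily intraperitoneal injections of cocaine at 50 mg/kg up to day 7 and 1 was a control. Both were 6 weeks old when the experiment started and were killed 24 h after the last dose, and total RNA of each spleen was hybridized to 1 Clariom S array. The title of the control sample calls it No Stimulation, its treatment label repeats the cocaine treatment, and the methods of the study state that control rats received the same volume of saline. The title and the series design were followed here. There is no replicate, so no error or p-value can be given, and having only 2 arrays limits how precise any value is.

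Rh proteins form a complex in the red cell membrane. RhAG is a channel for ammonia and, in humans, the Rh blood group proteins reach the surface only with it. Kell is a zinc-dependent peptidase of the red cell surface that is joined in humans to XK, a membrane protein that moves lipids between the leaflets of the bilayer. Red cells acquire these proteins in the bone marrow and, in rodents, also in the red pulp of the spleen, where red cell precursors can divide and mature in adult life. Mature red cells no longer have a nucleus and make no new RNA, so that RNA of such genes comes mostly from precursors and reticulocytes.

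All 8 genes had lower signals in the cocaine rat, by 2.44-fold for Cd55 up to 96.9-fold for Rhag as deposited. Each was at least 2-fold lower, as compared to 4.97% of all named genes and to 6.85% of the 1153 negative control features of the arrays. At 4-fold the count was 7 of 8 (1.64% of all named genes), and at 16-fold it was 6 of 8 (0.266%). The median difference of the 8 genes, as log2 signal in the cocaine rat minus log2 signal in the control rat, was -4.96 and that of all named genes was 0.04. These counts are not independent evidence, because 5 of the 8 genes (Rhag, Rhd, Aqp1, Lgals5 and Emb) are in a list of red cell genes that the study drew from the most decreased transcripts of these same 2 samples. The other 3 genes, Kel, Xk and Cd55, were also chosen with earlier results of these data known, so they are not independent evidence either. They were lower by 2-fold or more as deposited, and their median difference was -2.13, the value of Xk. When signals under the highest background feature of an array were raised to that feature, 2 of these 3 were past 2-fold and their median was -1.29. In RNA of whole spleen, fewer cells of a type and less RNA per cell cannot be told apart.

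**Figure D1:**
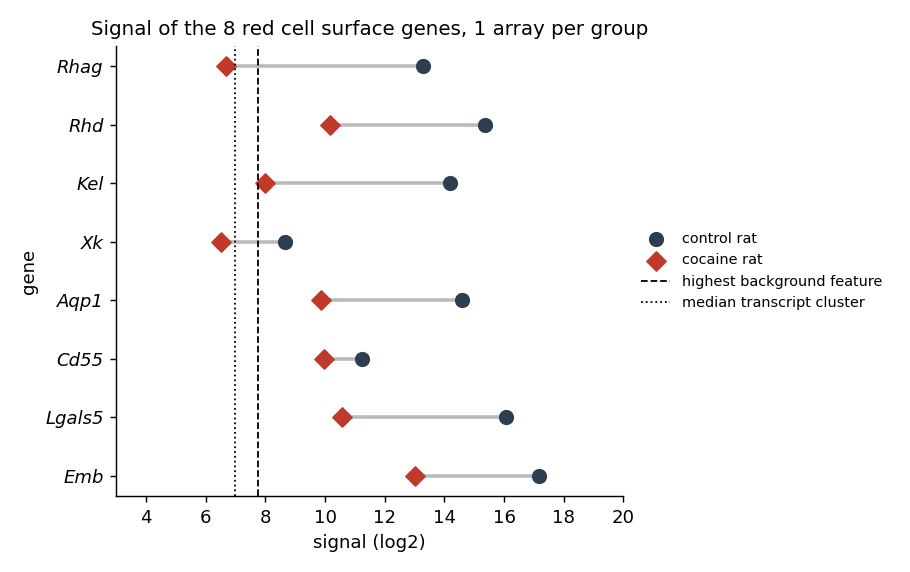
Log2 signal of each of the 8 genes (rows) in the control rat (circles) and in the cocaine rat (diamonds), with the highest background feature of the array (dashed line, 7.76) and the median transcript cluster (dotted line, 6.97). Every diamond lies to the left of its circle, and those of Rhag and Xk lie under the highest background feature.

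The promoters of 3 of the strongly lower genes, Rhag, Rhd and Lgals5, are shown because they hold a short sequence that GATA factors recognize, and that of Aqp1, another strongly lower gene, is shown beside them because it holds letters for KLF1 and none for GATA factors. GATA factors and the zinc finger protein KLF1 are transcription factors of red cell precursors. The promoters are the 250 bases before the start of each gene in RefSeq, and all 8 genes had an entry. Capitals mark matches on either strand. The letters searched for GATA factors were AGATAA. A second form of them was TGATAA. The letters searched for KLF1 were CCNCNCCC.
Rhag (GRCr8, chr9:27594391-27594640, minus strand): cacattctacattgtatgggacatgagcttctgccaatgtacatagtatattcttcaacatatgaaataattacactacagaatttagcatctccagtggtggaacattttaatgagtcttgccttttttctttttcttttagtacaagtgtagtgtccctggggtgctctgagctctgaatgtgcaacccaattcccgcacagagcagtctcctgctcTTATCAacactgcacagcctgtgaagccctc
Rhd (GRCr8, chr5:152370950-152371199, plus strand): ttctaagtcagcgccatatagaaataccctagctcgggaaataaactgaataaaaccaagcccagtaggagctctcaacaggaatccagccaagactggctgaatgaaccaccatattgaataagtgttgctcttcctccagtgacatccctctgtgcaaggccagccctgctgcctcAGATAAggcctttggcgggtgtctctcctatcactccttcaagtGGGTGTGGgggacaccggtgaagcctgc
Lgals5 (GRCr8, chr10:64355138-64355387, minus strand): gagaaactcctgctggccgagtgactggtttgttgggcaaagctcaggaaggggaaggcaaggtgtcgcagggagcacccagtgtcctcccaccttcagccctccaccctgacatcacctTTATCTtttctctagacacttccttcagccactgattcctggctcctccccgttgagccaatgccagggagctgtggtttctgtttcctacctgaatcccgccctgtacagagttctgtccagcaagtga
Aqp1 (GRCr8, chr4:85812534-85812783, plus strand): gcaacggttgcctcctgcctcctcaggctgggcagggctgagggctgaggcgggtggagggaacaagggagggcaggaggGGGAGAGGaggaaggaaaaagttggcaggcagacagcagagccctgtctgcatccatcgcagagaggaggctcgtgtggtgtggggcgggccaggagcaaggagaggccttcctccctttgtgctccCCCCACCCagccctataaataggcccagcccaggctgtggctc
In Rhag the match was the second GATA form on the opposite strand, 31 to 26 bases before the start. In Rhd it was the first form, 72 to 67 bases before the start, and KLF1 letters on the opposite strand followed at 28 to 21 bases. In Lgals5 it was the first form on the opposite strand, 130 to 125 bases before the start. Of all 33469 RefSeq promoters of the same length, 16.9% held at least 1 of the GATA letters, as compared to 3 of the 8 genes. In Aqp1 the KLF1 letters stood 170 to 163 bases before the start on the opposite strand and 43 to 36 bases before it on the same strand. They were found in the promoters of Rhd, Aqp1, Cd55 and Emb, which is 4 of 8, and in 42.8% of all promoters. The windows of Kel and Xk held none of these letters. No GATA match overlapped another match in these promoters, while KLF1 matches overlapped each other in Cd55 and in Emb. The window of Rhd lies in part, and those of Kel and Cd55 wholly, inside the annotated span of the gene, since the start used for it is inside that span. A match shows only that the letters are present, and their absence says nothing beyond this window.

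Both Rh genes were far lower in the cocaine rat. Rhag had a log2 signal of 13.29 in the control rat and of 6.69 in the cocaine rat, a difference of -6.60. Only 2 named genes had a lower difference. In the control rat Rhag was stronger than 95.5% of the named genes and in the cocaine rat than 43.2%. Its signal in the cocaine rat lay under the highest of the 23 background features of the array (7.76), so that the fold is a lower bound of 46.3 when that signal is raised to this feature. Rhd, the Rh blood group protein, had a log2 signal of 15.38 in the control rat and of 10.18 in the cocaine rat, a difference of -5.19 or 36.6-fold. Both signals of Rhd were above the background features. The differences of Rhag and Rhd were 1.41 apart on the log2 scale as deposited and 0.34 apart with the cocaine signal of Rhag raised to the highest background feature, and no test of either gap is possible without replicates. Rhbg and Rhcg, related ammonia channels of epithelia such as that of the kidney, had differences of 0.52 and -0.13, and neither array measured them above the highest background feature.

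Partners of the Rh complex in the red cell membrane were set beside them. Slc4a1, the anion exchanger of the red cell, was 65.2-fold lower (17.27 in the control rat and 11.24 in the cocaine rat, and all further pairs of signals follow this order). Epb42, which binds the anion exchanger from inside the cell, had a difference of -7.67, with a lower bound of 73.7-fold because its signal on the cocaine array was 6.29. Cd47, a partner of the Rh complex that most cells carry as a signal against engulfment, had a difference of -0.72, from 14.66 to 13.95. Icam4, the adhesion protein of the LW blood group, had a difference of -1.12, but neither signal exceeded the highest background feature. Of these 4 partners, 3 were lower and 0 higher by 2-fold or more, as compared to 4.97% and 2.28% of all named genes. With low signals raised to the highest background feature, 2 were lower. Slc4a1 and Epb42 are in the list of the study.

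Kel had a log2 signal of 14.20 in the control rat and of 7.97 in the cocaine rat, a difference of -6.22 or 74.6-fold, and ranked 7 from the lowest of all named genes. This gene is not in the list of the study. Its signal was 6.44 above the highest background feature in the control rat and 0.22 above it in the cocaine rat. Xk had a log2 signal of 8.65 in the control rat and of 6.52 in the cocaine rat, a difference of -2.13 or 4.36-fold. The signal of Xk in the control rat was only 0.89 above the highest background feature. With the lower signal raised to that feature the difference was -0.89, a lower bound of 1.85-fold, so that Xk was no longer past 2-fold. The folds of Kel and Xk as deposited were 17.1-fold apart, but Xk had little room above the background features to be lower.

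Of 6 other peptidases of the Kell family, 0 passed 2-fold in either direction, and their median was -0.01. Ece1, the endothelin-converting enzyme, had a difference of -0.72 (11.18 and 10.47), and Mme, neprilysin, had a difference of 0.73 (7.69 and 8.42). For 4 of the 6, neither signal exceeded the highest background feature. For the family of Xk, 6 genes were measured, its lipid transfer partner Vps13a included, and 0 passed 2-fold in either direction. Again for 4 of the 6, neither signal exceeded the highest background feature. Vps13a had signals of 11.41 (control) and 12.28 (cocaine), a difference of 0.87.

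Aqp1, the water channel of red cells, of some endothelia and of the kidney, had a log2 signal of 14.59 in the control rat and of 9.87 in the cocaine rat. The difference was -4.72, which is 26.4-fold. The signal in the cocaine rat was still 2.11 above the highest background feature. Of 11 other aquaporins, 10 had both signals under that feature. The exception was Aqp3, a channel for water and glycerol that carries a blood group in humans, with a difference of -2.10 (8.27 and 6.18) and a lower bound of 1.43-fold. Since endothelium also makes Aqp1, markers of this cell type were examined. Of 7 endothelial markers, 0 were lower by 2-fold or more and only Emcn was higher by that much (1.16). Within 2-fold, Tek (-0.38) was lower, as was Vwf (-0.91), which neither array measured above the highest background feature. Pecam1 (0.17), Kdr (0.09) and Stab2 (0.09) were slightly higher. Cdh5, the cadherin of endothelial junctions, had a difference of 0.01, and the sum of the signals of the list, taken on the linear scale and given as log2, was 13.37 in the control rat and 13.44 in the cocaine rat.

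Cd55 had the smallest difference of the 8 genes. It encodes decay-accelerating factor, which protects many cell types from complement by breaking up its convertases and carries the Cromer blood group in humans. Its log2 signal was 11.24 in the control rat and 9.95 in the cocaine rat, a difference of -1.29 or 2.44-fold. Among the 1245 other named genes with a mean signal within 0.5 of that of Cd55 on the log2 scale, 74 (5.94%) had a difference at least as low. By the same measure the share was 1.52% for Xk (23 of 1518), 2.33% for Emb (3 of 129) and at most 0.508% for the other 5 genes. Among 5 other regulators and receptors of complement, Cd59b, an inhibitor of the membrane attack complex, was 3.54-fold lower (13.60 and 11.77). Cr1l, which restrains complement on rodent cells, had a difference of 0.40, and Cr2, the complement receptor of B cells and follicular dendritic cells, had a difference of 0.88.

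Lgals5, a galectin described in rat reticulocytes and red cells, had a log2 signal of 16.07 in the control rat and of 10.56 in the cocaine rat. The difference was -5.51, which is 45.6-fold, and the gene ranked 11 from the lowest. Its signal in the control rat was stronger than that of 99.1% of the named genes. The other 9 galectins had a median difference of 0.35, and 0 of them were lower by 2-fold or more. Lgals7 was higher (1.05), but its control signal did not exceed the highest background feature and the lower bound is 1.21-fold. Lgals9, a close relative of Lgals5 that lies near it on chromosome 10, had a difference of -0.60 (13.05 and 12.46). The probe sequences are not analysed here, so that probes shared between these relatives were not tested.

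Emb encodes embigin, a glycoprotein of the immunoglobulin superfamily that brings monocarboxylate transporters to the cell surface. Its log2 signal was 17.17 in the control rat and 13.03 in the cocaine rat, a difference of -4.14 or 17.6-fold. The gene was stronger than 99.6% of the named genes in the control rat and still stronger than 94.9% in the cocaine rat. Its relatives Bsg, or basigin, and Nptn, or neuroplastin, had differences of -0.02 and -0.09. Among the monocarboxylate transporters, Slc16a1, which carries lactate across the red cell membrane, was 6.43-fold lower (12.48 and 9.79), and Slc16a7 had a difference of -0.01 (9.67 and 9.66).

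**Figure D2:**
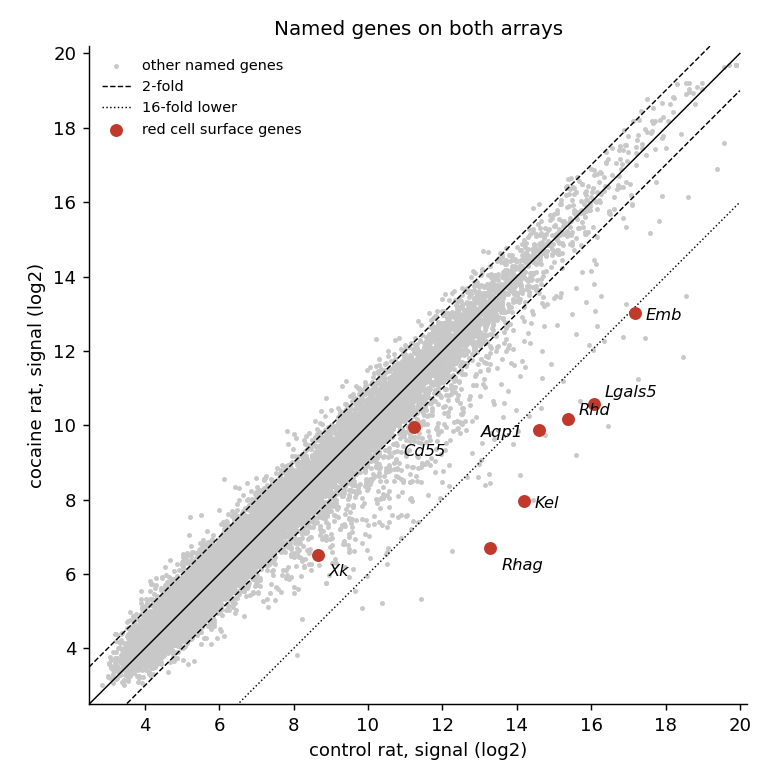
Log2 signal of each named gene in the control rat (horizontal axis) and in the cocaine rat (vertical axis), with the line of equal signal, lines at 2-fold (dashed) and a line at 16-fold lower (dotted). Rhag, Kel, Lgals5, Rhd, Aqp1 and Emb lie below the dotted line, and Xk and Cd55 lie between the 2-fold and the 16-fold line.

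Expressed as a share of the signal in the control rat, the signal in the cocaine rat was 1.34% for Kel, 2.19% for Lgals5, 2.73% for Rhd, 3.79% for Aqp1, 5.68% for Emb and 41.0% for Cd55. For Rhag and Xk, whose cocaine signals lay under the highest background feature, only an upper limit was measured, 2.16% and 54.0%. Rhag had a lower difference than Kel as deposited, but with this floor its value was higher (-5.53 against -6.22). Since the value of Rhag with the floor is only a bound, the order of Rhag and Kel is undetermined. In the control rat Xk and Cd55 lay 0.89 and 3.48 above the highest background feature, while the other 6 genes lay 5.53 to 9.41 above it. Across scalings of the arrays, without the floor, the difference of Rhag ranged from -6.62 to -6.50, that of Emb from -4.32 to -4.04 and that of Cd55 from -1.31 to -1.18. The order of neighbouring genes, such as Rhd and Lgals5, cannot be tested with 1 array per group.

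Genes with nearly the same pair of signals were looked up as a description over 2 arrays. The nearest to Rhd was Car1, a carbonic anhydrase of red cells, at a distance of 0.13 on the log2 scale (15.33 and 10.06). The nearest to Kel was Sptb, beta-spectrin of the membrane skeleton, at 0.25, and the nearest to Aqp1 was Fech, ferrochelatase of heme synthesis, at 0.22. Rhag lay nearest to Epb42 (0.78), Lgals5 to the lipoxygenase Alox15 (0.40) and Emb to Ybx3, a protein that binds DNA and RNA (0.33). The genes nearest to Xk and Cd55 were Atp6ap1l (0.08) and Rnf187 (0.11). The second nearest to Xk was Cdc20, an activator of mitotic protein degradation (0.10), and to Cd55 it was Dbf4, which acts at the start of DNA replication (0.12).

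For each gene the nearest measured named gene on either side in the genome was taken from the order of genes in RefSeq (GRCr8). Of these 16 neighbours, 0 passed 2-fold in either direction, and their differences ranged from -0.77 to 0.88. Beside Rhd, Tmem50a had log2 signals of 14.22 in the control rat and 14.12 in the cocaine rat, and Maco1 had a difference of -0.42. Beside Xk, Cybb, the heavy chain of the oxidase of phagocytes, had log2 signals of 16.36 and 16.43. Many of the others, such as Pip beside Kel (5.03 and 4.52) and Ghrhr beside Aqp1 (6.39 and 5.61), had both signals within the range of the background features.

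Other blood group genes were examined as a list made up from textbook knowledge with earlier results of these data known. Its counts are therefore not independent evidence. Of 29 measured genes, 10 were lower and 0 higher by 2-fold or more, as compared to 4.97% and 2.28% of all named genes, and the median was -0.29. Once low signals were raised to the highest background feature, 6 were lower. Slc4a1, which carries the Diego blood group, is among them and is described above. Slc14a1, the urea channel of the Kidd blood group, had a difference of -2.81, from 10.16 to 7.35, with a lower bound of 5.29-fold. Gypc, the glycophorin of the Gerbich blood group, was 4.27-fold lower (12.57 and 10.47), and Aqp3 was given above. Bsg and Cd44, blood group proteins that many cells carry, had differences of -0.02 and -0.10.

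Other transporters and receptors of the red cell surface were also lower in part. Of 18 measured genes, 10 were lower and 0 higher by 2-fold or more, as compared to 4.97% and 2.28% of all named genes. The median was -1.28, and 8 were lower once low signals were raised to the highest background feature. Slc43a1, an amino acid transporter, was 42.5-fold lower (14.07 and 8.67). The glycine transporter Slc6a9, which supplies heme synthesis, had a difference of -5.15 and a lower bound of 6.12-fold. Slc22a4, a transporter of ergothioneine, had a difference of -4.24 with a lower bound of 6.71-fold, and the transferrin receptor Tfrc, which is in the list of the study, was 17.1-fold lower. The glucose transporter Slc2a1 had a difference of -0.33 (8.49 and 8.16). Over all relatives and partners together, 92 of 105 listed genes were measured, of which 23 (25%) were lower and 1 higher by 2-fold or more. Without the 3 of them that are in the list of the study, 20 of 89 were lower. All of these genes were listed with earlier results of these data known. Several of these genes belong to more than a single list and were counted once here.

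**Figure D3:**
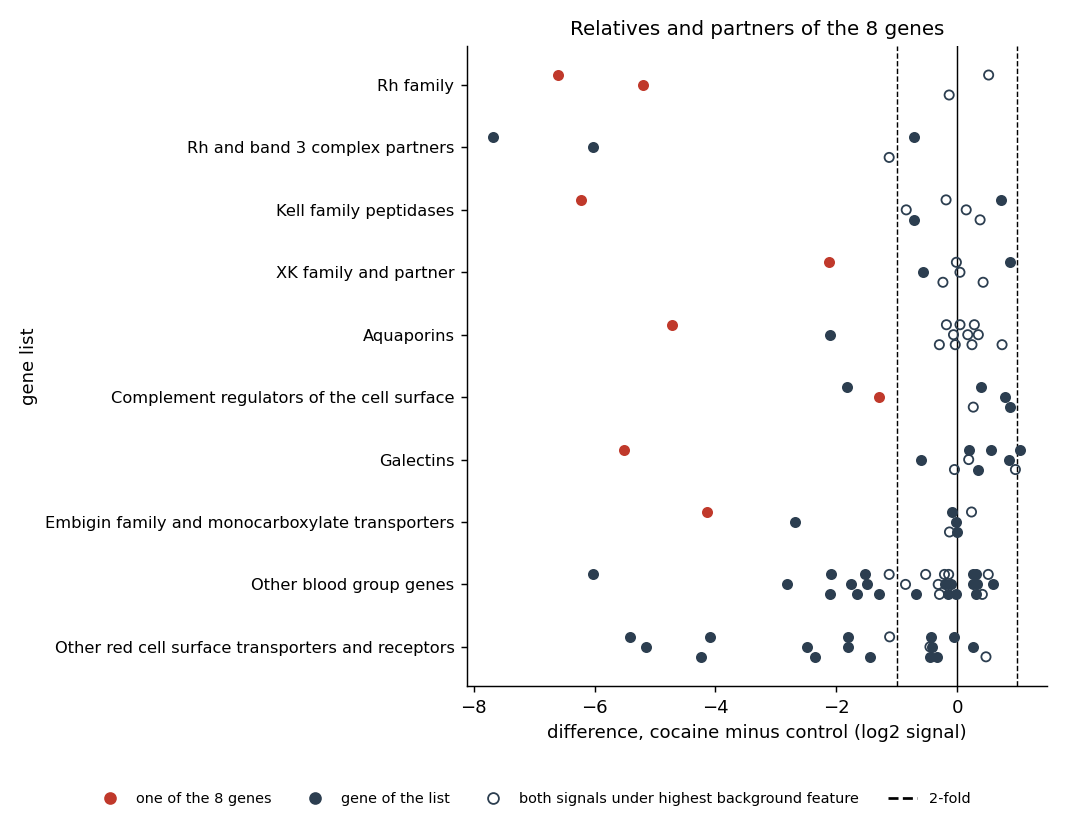
Difference between the arrays (cocaine minus control, log2 signal, horizontal axis) for each measured gene of 10 lists of relatives and partners, with the 8 genes in red, other genes in dark blue, open circles for genes that neither array measured above the highest background feature, and dashed lines at 2-fold. As deposited, the red points of the Rh, Kell, Xk, galectin and embigin lists stand apart to the left of the rest of their families. The transporter Slc16a1 in the embigin list is the exception. With its cocaine signal raised to the highest background feature, Xk is at -0.89, against -0.56 for its relative Xkrx. Rhbg, Rhcg and 4 of 6 relatives in each of the Kell and Xk lists are open circles, with little room to be lower.

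Markers of other cells of the spleen were set beside these values, since Cd55, Emb and Aqp1 are also made outside the red cell lineage. All 7 markers of red cell precursors were lower by 2-fold or more as deposited, and their median was -6.03. Of these markers, 5 are in the list of the study. The cocaine signals of Epb42 and Klf1 lay under the highest background feature. With its cocaine signal raised to that feature, Klf1 (8.10 and 3.83) had a lower bound of 1.27-fold and was no longer past 2-fold. The summed signal of this list was 19.66 in the control rat and 14.09 in the cocaine rat on the log2 scale, a difference of -5.58. The 6 markers of T cells and the 3 measured markers of B cells were all within 2-fold, with differences of the summed signal of 0.24 and 0.74. The B cell markers went in both directions, with Cd79b (0.63) and Cr2 (0.88) higher and Fcer2 (-0.93) lower. Fcer2 had the weakest signals of them and adds least to the summed signal. Of 6 markers of red pulp macrophages 0 passed 2-fold, with a median of -0.40. C1qa, a chain of complement, had the lowest difference (-0.75) and Vcam1 the highest (0.35), the only 1 above 0, and the summed signal, in which Vcam1 is strongest, differed by -0.06. In the neutrophil list 3 of 5 markers were at least 2-fold lower, S100a9 by 2.62-fold among them, but 3 of the 5, including the lower gene Camp, had neither signal above the highest background feature, and the summed signal differed by -1.27. In the list of megakaryocytes and platelets the chemokine Ppbp was 4.37-fold lower and the other 2 were within 2-fold, with a difference of -0.79 in the summed signal. Of the other 2, Pf4 had a difference of -0.19, and Gp9 (-0.54) had neither signal above the highest background feature. In smooth muscle, 2 of 5 markers, Acta2 (1.03) and Tagln (1.21), were at least 2-fold higher. Des (0.87) and Myh11 (0.15) were within 2-fold. So was Cnn1 (-0.26), which neither array measured above the highest background feature. The summed signal of smooth muscle, in which Acta2 and Tagln are strongest, differed by 1.08. Signals of Cd79b, a chain of the B cell receptor (15.08 and 15.72), and of C1qa (14.07 and 13.32) were well above the background features in this tissue labelled as spleen. The part of any of these cell types in the differences of the 8 genes was not tested.

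**Figure D4:**
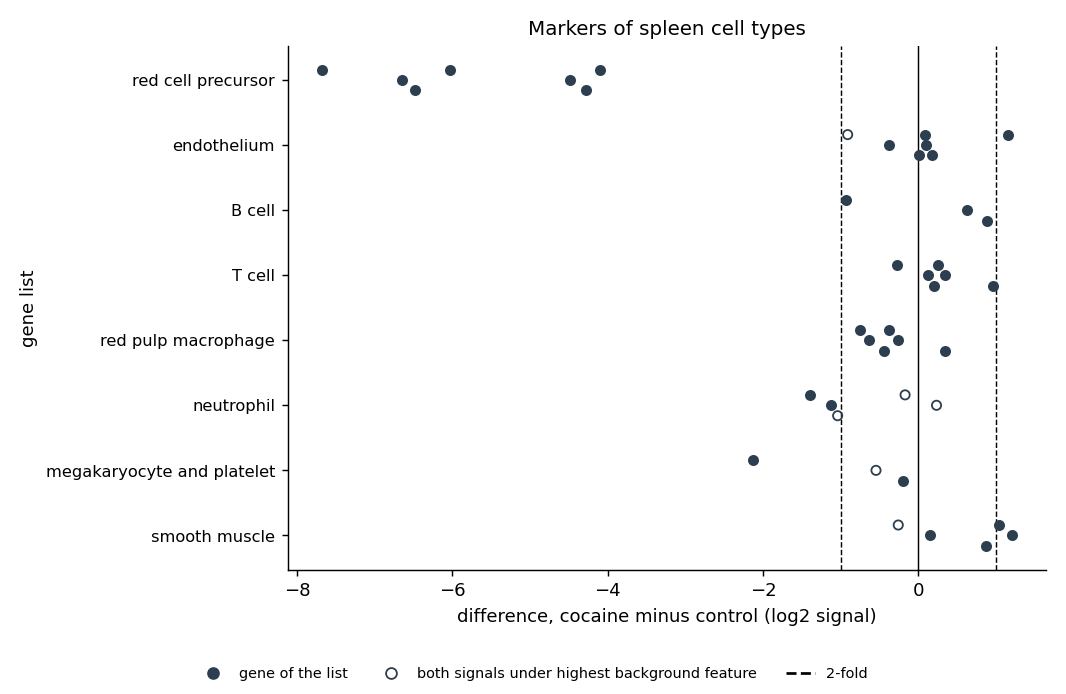
Difference between the arrays (cocaine minus control, log2 signal, horizontal axis) for each measured marker of 8 cell types, with open circles for markers that neither array measured above the highest background feature and dashed lines at 2-fold. As deposited, the markers of red cell precursors lie between -7.67 and -4.10, and no marker of another cell type lies below -2.13. The cocaine signals of Epb42 and Klf1 are under the highest background feature, and the lower bound for Klf1 is 1.27-fold.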

How the data were processed

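The authors deposited log2 signals, summarised from Clariom S arrays (RNA isolated with TRIzol and RNeasy columns and treated with DNase I). How background was corrected and signals normalized, and the genome build, were not given in the sources used here. Of 24834 features, 23188 were transcript clusters and 15049 of these had a gene symbol, standing for 15037 genes (all matched to RefSeq by Entrez identifier). Where a gene had several clusters that of the highest mean signal was used, but each of the 8 genes had 1 cluster. Values at the ceiling of an array (19.69 and 19.89) did not occur among them. With 1 array per group, differences were counted past 2-fold, as in the study, and no test was made. In the lists of relatives and partners, every gene at least 2-fold lower or higher was named (at most 4 per list). Close relatives and some cell type markers were also named. Others, such as Cd44, Cr2 and Slc2a1, were picked with their values known. The 8 genes and all lists were chosen with earlier results of these data known. The counting was tested on simulated data without noise, which checks the arithmetic and not how reliable a 2-fold call is. Promoter sequences are from RefSeq (GRCr8). Protein sequences were not used here. The tools were python 3.11.15, statsmodels 0.14.6, pandas 2.3.3, numpy 2.4.6 and matplotlib 3.10.9.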

Additional observations from a re-analysis of the deposited data

How the results depend on the processing

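The differences were recomputed with each array centred on its median or 75th percentile, with quantile normalization, with a loess correction for mean signal (span 0.3), with low signals raised to the highest background feature or the 25th percentile, and with averaging of a gene's clusters. No scaling turned the direction of any of the 8 genes or took it across 2-fold, and the median of all genes moved by at most 0.09. With signals raised to the highest background feature, the difference of Rhag was -5.53 and that of Xk was -0.89, which left 7 of 8 genes at least 2-fold lower. Without the genes of the list of the study, 3 genes were in the count and the median was -2.13, and with the background floor as well these values were 2 and -1.29, an alternative added after the data were seen. Of the relatives and partners, 12 were lower at a threshold of 4-fold. The number higher was 2 with 75th percentile centring, 0 with the background floor, 9 at 1.5-fold and 0 at 4-fold. With the background floor, 17 relatives and partners were at least 2-fold lower. The threshold of 16-fold was also added then. No paired analysis was possible because each group has 1 array and no test was made, and for the same reason no array could be left out. The protein comparison was not run. Signals within the background features limit the folds of Rhag and Xk.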
